A study of Mus musculus with 16 samples.

Results

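The expression of 33 genes of the blood vessel endothelium was followed in the developing mouse palate, in mutants that lack Erk2 in neural crest cells and in their controls. The genes were named as a list, and each was read from a probe set that the array annotation gives to that gene alone, taking the probe set with the highest mean where a gene had several. All 33 had such a probe set, out of 18194 genes with one. Of these genes, 29 of the 33 and 11116 in all passed a filter on low values, which asked for at least 3 arrays at a log2 value of 4 or more.

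The arrays formed 4 groups, all from C57BL/6J embryos that carried the floxed Erk2 allele on both chromosomes. Mutants (Erk2 fl/fl; Wnt1-Cre) also carried Wnt1-Cre, which expresses the recombinase in the neural crest, and controls (Erk2 fl/fl) are named wild-type in their titles although they carry the floxed allele. At embryonic day 13.5 (E13.5) there were 3 mutants and 3 controls, and at E14.5 there were 5 mutants and 5 controls. In both genotypes the E14.5 replicates 1 and 2 are labelled batch 1, and replicates 3, 4 and 5 are labelled batch 2. The series was made to ask how disturbed ERK signalling affects the metabolism of palatal mesenchyme. Its description speaks of primary palatal mesenchymal cells, whereas the sample labels speak of palate mesenchyme tissue. How many embryos 1 array holds is not given in the sources used here, and p-values measure the spread between these samples, which may be partly technical.

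Endothelial cells line every blood vessel. They are held together by junction proteins such as VE-cadherin, respond to VEGF and angiopoietin through receptor tyrosine kinases, and keep their identity through transcription factors of the ETS, SOXF and GATA families. ERK1 and ERK2 act downstream of VEGF receptors in these cells. In the head the endothelium derives mainly from mesoderm, while the mesenchyme of the palate and the mural cells around facial vessels derive largely from neural crest, the population in which Wnt1-Cre acts.

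The values are log2 expression values made with GCRMA, and a difference of 1 is a doubling. Array medians were 3.416 to 3.445 in mutants, against 3.386 to 3.404 in controls, at E13.5, and 1.63 to 1.65 in mutants, against 1.63 to 1.66 in controls, at E14.5. Within a group, pairs of arrays had correlations of 0.993 to 0.997 across the 11116 genes, and no 2 arrays held identical values. Sex-linked transcripts marked all 6 arrays at E13.5 as female, and 3 of 5 mutants and 1 of 5 controls at E14.5. Whether an array so marked held embryos of both sexes was not tested. E14.5 controls 1 and 3 stood apart from the other controls in the mean of 11 skeletal muscle genes, at 5.55 and 5.51, against 6.49 to 6.77 in the other 3 controls. For arrays, their number limits the precision of each value.

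Endothelial transcripts were present in the samples of every group. Of the 33 genes, 29 were at a log2 value of 4 or more on at least 3 arrays, among them Cdh5 (VE-cadherin), Pecam1, Kdr (VEGF receptor 2), Erg and Emcn, which define the cell type. Their mean over the 29 genes was 5.96 to 6.04 in mutants, against 5.99 to 6.10 in controls at E13.5, and 5.01 to 5.21 in mutants, against 5.17 to 5.32 in controls at E14.5. The genotypes thus overlapped at both stages, and at E14.5 the overlap was narrow. At E14.5, 19 of the 29 had a mean of log2 4 or more, and 10 lay below it: Pecam1, Flt1, Eng, Robo4, Sox7, Tal1, Gata2, Notch4, Apln and Nos3. The 4 genes that did not pass the filter were Tie1, Dll4, Vwf and Esm1. They ranged from 2.69 (Dll4) to 4.03 (Vwf) at E13.5 and from 1.32 (Dll4) to 3.26 (Vwf) at E14.5, where they carried little signal. They were left out of the main tests. An alternative without the filter tested all 33 genes, and none was called between genotypes at either stage.

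**Figure D1:**
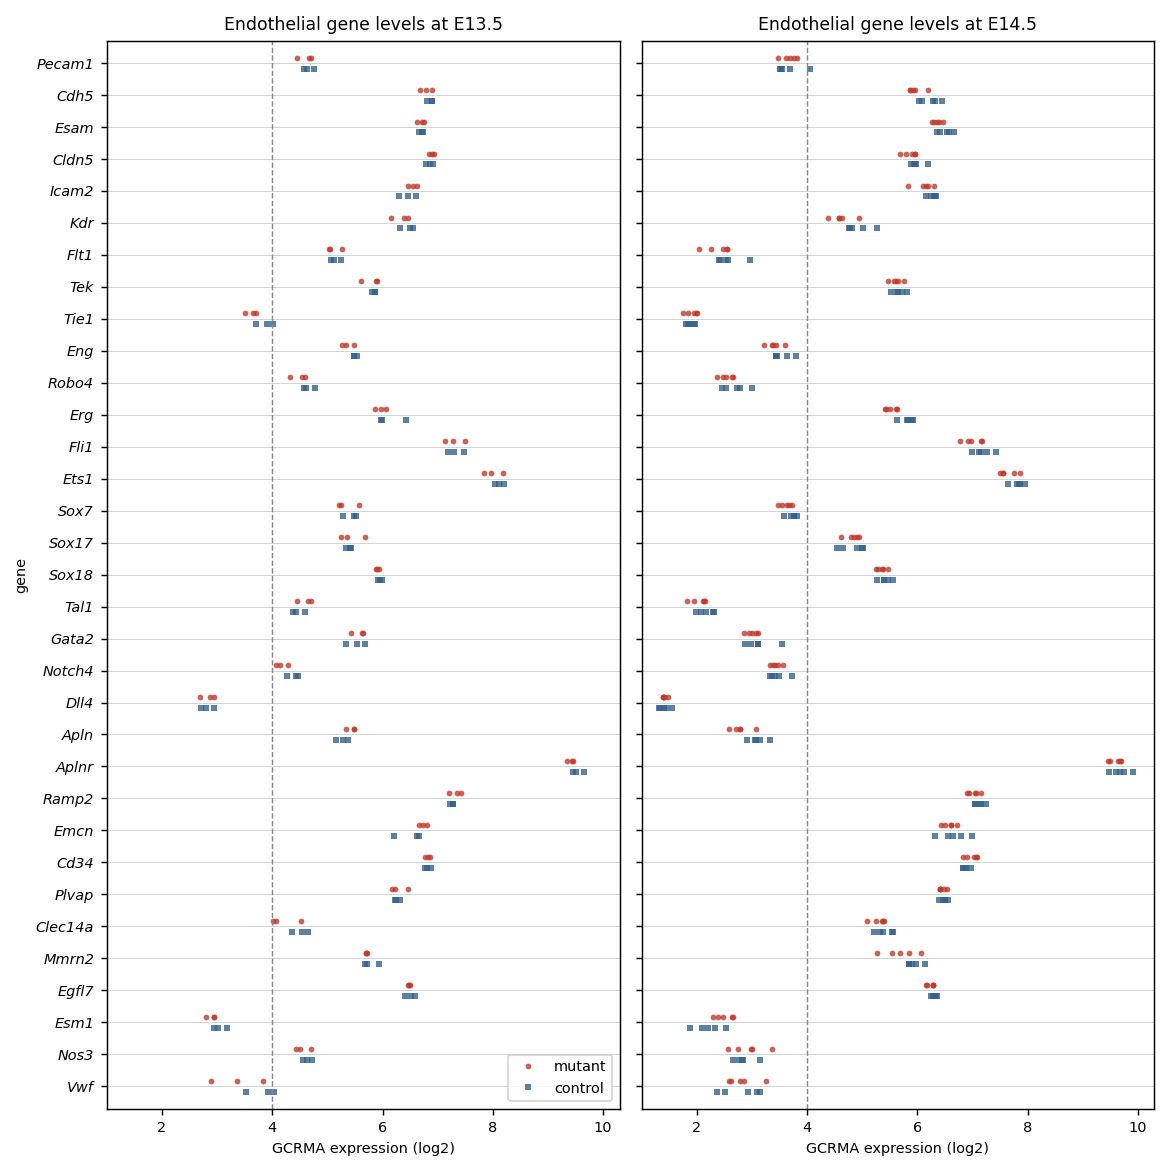
GCRMA log2 expression of the 33 endothelial genes on every array at E13.5 (left) and E14.5 (right), with mutants as red circles above controls as blue squares in each row. The dashed line marks the log2 value of 4 used in the filter, and mutants and controls overlap in nearly all rows, with Erg at E14.5 just separated.

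At E13.5 the endothelial genes did not stand apart from the rest of the array. None of the 29 was called at an adjusted p under 0.05 by limma, against 11 of all 11116 genes (0.0990%). The fitted difference, mutant minus control, was below 0 for 19 of 29 genes, a share close to that of all genes, of which 68.5% were fitted lower in mutants. The median difference of the 29 genes was −0.045 on the log2 scale, and that of all genes was −0.044.

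Only Notch4 and Clec14a had an unadjusted p under 0.05 at E13.5, 2 of 29 genes against 9.54% of all genes. Notch4, a Notch receptor found mainly in endothelium, was at 4.15, 4.07 and 4.28 in mutants, against 4.28, 4.43 and 4.47 in controls. The highest mutant lay just above the lowest control, and the fitted difference was −0.23 ± 0.10 (moderated SE, n = 3 and 3, limma adjusted p = 0.488). Clec14a, a C-type lectin of the endothelial surface, was at 4.01, 4.53 and 4.07 in mutants, against 4.55, 4.64 and 4.36 in controls, with mutant 2 inside the range of the controls. Its difference was −0.31 ± 0.13 (limma adjusted p = 0.492), but its other probe set gave 0.05, so the 2 probe sets of Clec14a disagreed. The other 2 probe sets of Notch4, both dim, also lay above 0 at E13.5, at 0.14 and 0.11.

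In 2 genes the E13.5 arrays of the genotypes did not overlap, among 29, against 17.9% of all genes in either direction. Emcn, which encodes the sialomucin endomucin of veins and capillaries, was at 6.81, 6.73 and 6.67 in mutants, against 6.66, 6.63 and 6.21 in controls. The lowest mutant (6.666) lay barely above the highest control (6.664), and control 3 lay well below the other arrays. The difference was 0.23 ± 0.15 (limma adjusted p = 0.647). Eng, or endoglin, a co-receptor for ligands of the TGF-beta family, was at 5.48, 5.27 and 5.34 in mutants, against 5.48, 5.55 and 5.49 in controls. The highest mutant and the lowest control were equal at 2 decimals, and the difference was −0.14 ± 0.10 (limma adjusted p = 0.693).

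At E14.5 most endothelial genes lay slightly lower in mutants, each by a small amount. The fitted difference was below 0 in 26 of 29 genes, with Sox17 among them at 0.00, whereas 44.0% of all 11116 genes were fitted lower. The median difference over the 29 genes was −0.126, and over all genes it was 0.015. None of the 29 was called at an adjusted p under 0.05 by limma, against 292 of all genes (2.63%), of which 164 were higher and 128 lower in mutants. An unadjusted p under 0.05 was reached by 7 of the 29, all lower in mutants, against 17.3% of all genes in either direction. The differences ran from −0.31 in Apln to 0.10 in Cd34. In bulk samples, fewer endothelial cells and less RNA of these genes per cell cannot be told apart.

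**Figure D2:**
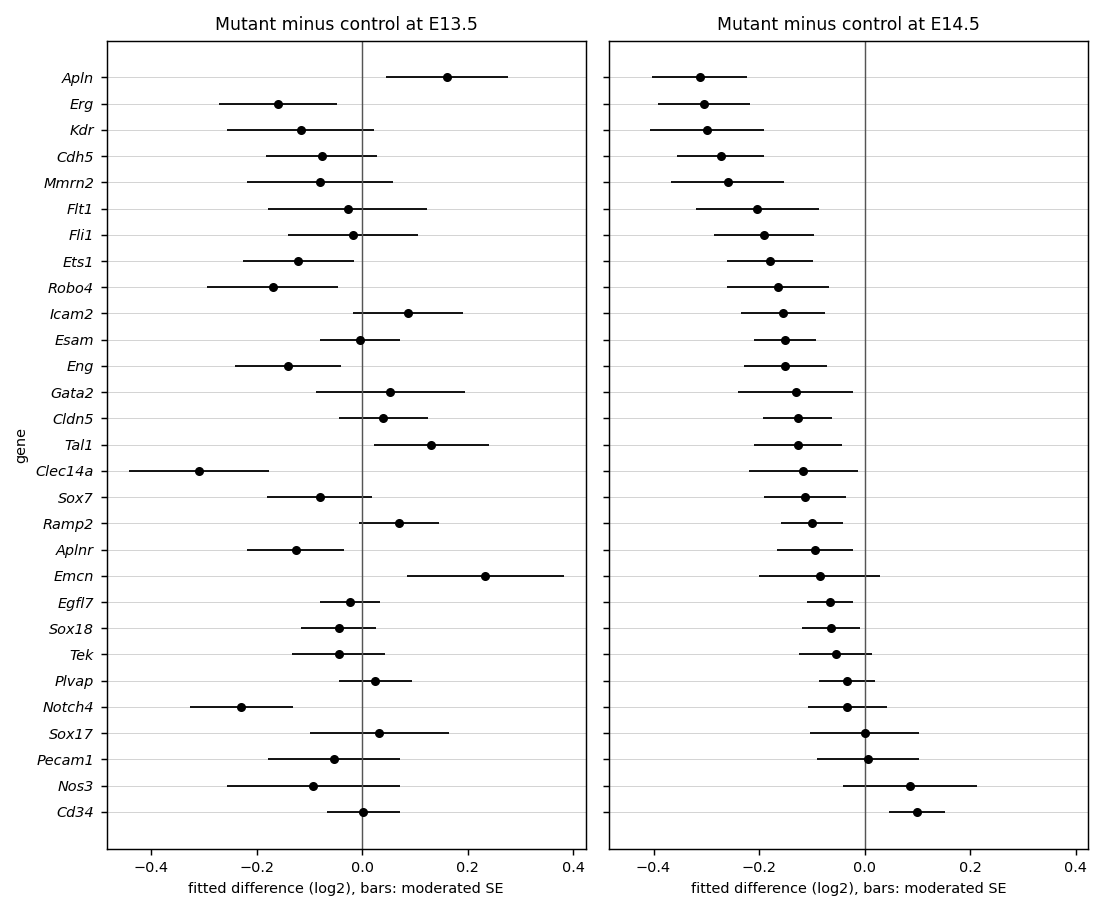
Fitted difference between mutants and controls (log2, mutant minus control) for the 29 endothelial genes tested, at E13.5 (left, n = 3 and 3) and E14.5 (right, n = 5 and 5), with bars for the moderated standard error. Genes are ordered by the E14.5 value, and 26 of 29 lie below 0 at E14.5, against 19 of 29 at E13.5.

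Genes read from bright probe sets and genes read from dim ones had similar medians at E14.5. Within a gene, a dim probe set could differ from a bright one, as given for Erg and Cdh5 below. Among the 19 genes with an E14.5 mean of log2 4 or more, 18 were below 0 (94.7%) with a median of −0.12, against 43.7% and a median of 0.01 over the 8670 genes of all that reached this level. Among the 10 dimmer ones, 8 were below 0 with a median of −0.13, against 45% and 0.02 over the 2446 dimmer genes.

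Among the transcription factors, Erg, an ETS family factor on chromosome 16 that maintains endothelial identity, was the 1 gene of 29 whose E14.5 arrays did not overlap, against 2.15% of all genes that did not overlap with mutants lower once the batch effect was removed. Erg was at 5.44, 5.62, 5.63, 5.51 and 5.42 in mutants, against 5.93, 5.82, 5.91, 5.63 and 5.84 in controls. As deposited, the highest mutant (5.627) lay just under the lowest control (5.634). The fitted difference was −0.305 ± 0.087 (moderated SE, n = 5 and 5), or 0.809 times the control level, and Erg was not called (limma adjusted p = 0.0805). A second, dim probe set of Erg gave −0.06, and the mean of both gave −0.18.

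Ets1 and Fli1 are further ETS factors of endothelium, which leukocytes and some mesenchyme also express. Ets1 was at 7.56, 7.56, 7.75, 7.86 and 7.51 in mutants, against 7.82, 7.96, 7.65, 7.84 and 7.87 in controls, where mutant 4 lay among the controls and control 3 among the mutants. Its difference was −0.18 ± 0.08 (limma adjusted p = 0.28), and its other 3 probe sets gave −0.10, −0.16 and −0.10. Fli1 was at 6.78 to 7.18 in mutants, against 7.001 to 7.43 in controls, with a difference of −0.19 ± 0.10 (limma adjusted p = 0.328). A second probe set of Fli1 gave −0.08. The SOXF factors, which act in vessel formation and arterial identity, had smaller fitted differences, Sox7 by −0.11 ± 0.08, Sox18 by −0.06 ± 0.06 and Sox17 by 0.00 ± 0.10, with a 95% interval of −0.22 to 0.22 for Sox17. Tal1 and Gata2, factors shared by blood and endothelial precursors, were at −0.13 ± 0.08 and −0.13 ± 0.11, both from probe sets under log2 4 at this stage. All 8 transcription factors were fitted at or below 0, and none was called.

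Since 3 of these factors are ETS proteins, whose DNA contact centres on the letters GGAA, the promoters of the genes were searched for AGGAAG or CGGAAG on both strands, in the 250 bases before the gene start. RefSeq windows (GRCm38.p6) were at hand for 18 of the 33 genes, with 24 windows in all since some genes have several starts. A match stood in 11 of the 24 windows, or in windows of 10 of the 18 genes, against 39.2% of all 32851 windows of the same length. The GATA motif AGATAA, also on both strands, was in 2 of the 24, against 9.99% of all windows. A match describes these letters only. The windows of the 4 genes with the lowest E14.5 differences among those with an entry are printed so that the letters can be seen, from Apln on chrX:48034854-48035103, Kdr on chr5:75978456-75978705, Flt1 on chr5:147726012-147726261 and, of 3 starts of Erg, the one with a match on chr16:95459349-95459598. All 4 are on the minus strand and are written 5′ to 3′ toward the gene start, with the matches in capitals. Apln and this Erg window hold 1 match each, Flt1 holds 2 and Kdr none.
Apln: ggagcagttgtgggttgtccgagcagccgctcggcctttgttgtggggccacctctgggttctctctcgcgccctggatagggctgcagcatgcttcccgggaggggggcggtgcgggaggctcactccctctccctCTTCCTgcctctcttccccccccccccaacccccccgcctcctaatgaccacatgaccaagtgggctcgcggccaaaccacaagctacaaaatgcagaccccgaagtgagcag
Erg: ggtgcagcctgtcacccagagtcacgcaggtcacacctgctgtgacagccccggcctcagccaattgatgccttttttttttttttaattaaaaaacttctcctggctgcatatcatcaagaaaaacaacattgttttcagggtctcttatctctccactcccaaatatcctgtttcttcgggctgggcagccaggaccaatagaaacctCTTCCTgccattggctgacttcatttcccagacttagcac
Kdr: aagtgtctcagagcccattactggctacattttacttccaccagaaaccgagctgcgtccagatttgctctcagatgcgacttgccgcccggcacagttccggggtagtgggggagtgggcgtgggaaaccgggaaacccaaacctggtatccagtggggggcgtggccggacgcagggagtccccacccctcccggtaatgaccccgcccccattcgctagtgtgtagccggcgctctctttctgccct
Flt1: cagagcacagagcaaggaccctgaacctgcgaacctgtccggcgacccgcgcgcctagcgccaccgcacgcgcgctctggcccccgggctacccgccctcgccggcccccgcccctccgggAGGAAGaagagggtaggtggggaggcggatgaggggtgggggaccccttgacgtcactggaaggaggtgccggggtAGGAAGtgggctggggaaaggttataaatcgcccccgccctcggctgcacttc

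Of the growth factor and guidance receptors, all 5 tested were fitted lower at E14.5, as they were at E13.5. Kdr, the main signalling receptor for VEGF, was at 4.39, 4.58, 4.64, 4.95 and 4.59 in mutants, against 5.02, 4.76, 5.27, 4.82 and 4.77 in controls. Mutant 4 lay above 3 of the 5 controls, and the other 4 mutants lay below all of them. Kdr differed by −0.30 ± 0.11 (limma adjusted p = 0.164). Without E14.5 controls 1 and 3, which have the low muscle means and are also the highest controls for Kdr, it differed by −0.14. At E13.5 the difference of Kdr was −0.12 ± 0.14, and its arrays were mixed, at 6.16 to 6.47 in mutants, against 6.31 to 6.56 in controls.

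Flt1, VEGF receptor 1, which binds VEGF with high affinity and signals weakly, had a dim signal of 2.05 to 2.55 in mutants, against 2.41 to 2.97 in controls, and control 3 lay above all other arrays. Its difference at E14.5 was −0.20 ± 0.12 (limma adjusted p = 0.4), and its 4 probe sets gave −0.04 to −0.20. Eng differed by −0.15 ± 0.08 at E14.5, close to its value at E13.5, and its second probe set gave −0.23. Robo4, an endothelial guidance receptor that stabilises vessels, differed by −0.17 ± 0.12 at E13.5 and −0.16 ± 0.10 at E14.5. Tek, the angiopoietin receptor TIE2, differed by −0.05 ± 0.09 at E13.5 and −0.06 ± 0.07 at E14.5, with a 95% interval of −0.20 to 0.09 at E14.5. None of the 5 receptors was called at either stage.

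Among the junction genes, Cdh5 had the lowest difference. VE-cadherin, its product, is the adhesion protein of endothelial cell contacts. Cdh5 was at 5.88, 5.96, 5.93, 6.19 and 5.86 in mutants, against 6.29, 6.08, 6.31, 6.04 and 6.46 in controls. Of the mutants only mutant 4 reached into the range of the controls. The difference was −0.27 ± 0.08, or 0.828 times the control level (limma adjusted p = 0.0938), against −0.08 ± 0.11 at E13.5. A second probe set with little signal gave −0.05, and the mean of both gave −0.16.

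Esam, an adhesion molecule of endothelial tight junctions and platelets, was at 6.27, 6.47, 6.37, 6.39 and 6.30 in mutants, against 6.55, 6.36, 6.66, 6.42 and 6.58 in controls, and controls 1, 3 and 5 lay above all mutants. It differed by −0.15 ± 0.06 (limma adjusted p = 0.198). Cldn5, the main claudin of endothelial tight junctions, differed by −0.13 ± 0.07, and Icam2, a ligand for leukocyte integrins, by −0.16 ± 0.08, with adjusted p of 0.349 and 0.348 by limma. Pecam1, the platelet and endothelial adhesion molecule also known as CD31, was at 3.76, 3.61, 3.47, 3.82 and 3.69 in mutants, against 3.51, 3.55, 3.69, 3.53 and 4.05 in controls. The groups overlapped throughout, and its difference was 0.01 ± 0.10 with a 95% interval of −0.20 to 0.21. The Pecam1 probe set lay under log2 4 on all E14.5 arrays but control 5, at 4.05.

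Of the peptide signalling genes, Apln had the lowest difference of the 29 genes at E14.5. Its product apelin is a peptide of angiogenic tip cells that acts on the receptor encoded by Aplnr. Apln, on the X chromosome and with a dim signal at this stage, was at 2.79, 2.71, 3.07, 2.79 and 2.59 in mutants, against 3.33, 2.91, 3.05, 3.07 and 3.15 in controls. Mutant 3 lay inside the range of the controls, and the other mutants below all controls. The difference was −0.31 ± 0.09, or 0.806 times the control level (limma adjusted p = 0.0836), and it was −0.35 when sex was added to the model (limma adjusted p = 0.113; 0.0313 to 0.3 over 29 alternatives).

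At E13.5 Apln was fitted higher in mutants, at 5.34, 5.49 and 5.49 in mutants, against 5.38, 5.29 and 5.16 in controls. Its difference there was 0.16 ± 0.12, with mutant 1 inside the range of the controls. Aplnr, the apelin receptor, was at 9.45 to 9.70 in mutants, against 9.48 to 9.92 in controls and differed by −0.13 ± 0.09 at E13.5 and −0.09 ± 0.07 at E14.5. Ramp2, which pairs with the calcitonin receptor-like receptor to bind adrenomedullin, differed by 0.07 ± 0.08 at E13.5 and −0.10 ± 0.06 at E14.5.

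Of the 6 surface, matrix and secreted genes tested, 5 were fitted lower at E14.5. Mmrn2, an extracellular matrix glycoprotein of endothelium and the ligand of Clec14a, was at 5.27, 5.69, 5.85, 6.07 and 5.54 in mutants, against 5.97, 5.85, 5.85, 6.15 and 5.90 in controls. Mutants 1, 2 and 5 lay below all controls, and mutants 3 and 4 lay within the control range. Its difference was −0.26 ± 0.11 (limma adjusted p = 0.227), and its other probe sets gave −0.09 to −0.20. Clec14a differed by −0.12 ± 0.10, Emcn by −0.09 ± 0.12, Egfl7, a secreted factor of endothelium, by −0.07 ± 0.04, and Plvap, the protein of fenestral diaphragms, by −0.03 ± 0.05. Other probe sets of Egfl7 gave −0.07, −0.08 and 0.08 at E14.5, the last from a dim probe set with a mean of 2.95.

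Cd34, a sialomucin of endothelial and progenitor cells that some fibroblasts also carry, was the member of this group with a value above 0. It was at 7.02, 6.90, 7.06, 7.08 and 6.83 in mutants, against 6.83, 6.89, 6.83, 6.88 and 6.98 in controls. Mutants 1, 3 and 4 lay above all controls, and the difference was 0.10 ± 0.05 (limma adjusted p = 0.366). Nos3, endothelial nitric oxide synthase, was also above 0, at 0.09 ± 0.13 with a 95% interval of −0.19 to 0.36. Notch4 differed by −0.03 ± 0.08 at E14.5, against −0.23 ± 0.10 at E13.5.

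Whether the genotype difference changed between the stages was tested directly. No endothelial gene was called for a difference between the genotype effects by limma, against 0.117% of all genes. Apln came closest, with an E14.5 minus E13.5 change of effect of −0.47 ± 0.15 (limma adjusted p = 0.287), the only unadjusted p under 0.05 among the 29. Emcn followed in size with −0.32 ± 0.19 (limma adjusted p = 0.58). Of the 29 genes, 17 were fitted lower in mutants at both stages, and 9 had a fitted value above 0 at E13.5 but below 0 at E14.5. The median of this change was −0.06 over the 29 genes and 0.06 over all genes.

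The E14.5 batches gave different sizes. Within batch 1 (2 mutants and 2 controls) the median difference of the 29 genes was −0.05, and 18 were lower in mutants, against a median of 0.02 and 44.6% over all genes. Within batch 2 (3 mutants and 3 controls) the median was −0.16 and 27 were lower, against 0.01 and 46.8% over all genes. In 18 genes the mutants were lower in both batches, and in 9 the batches had opposite signs. The genes with the lowest values kept their sign: Cdh5 was at −0.27 in batch 1 and −0.28 in batch 2, Erg at −0.35 in batch 1 and −0.28 in batch 2, Apln at −0.37 in batch 1 and −0.27 in batch 2 and Kdr at −0.40 in batch 1 and −0.23 in batch 2. Icam2, Cldn5, Ramp2, Aplnr, Emcn, Gata2, Notch4, Sox17 and Pecam1 were above 0 in batch 1 and below 0 in batch 2.

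**Figure D3:**
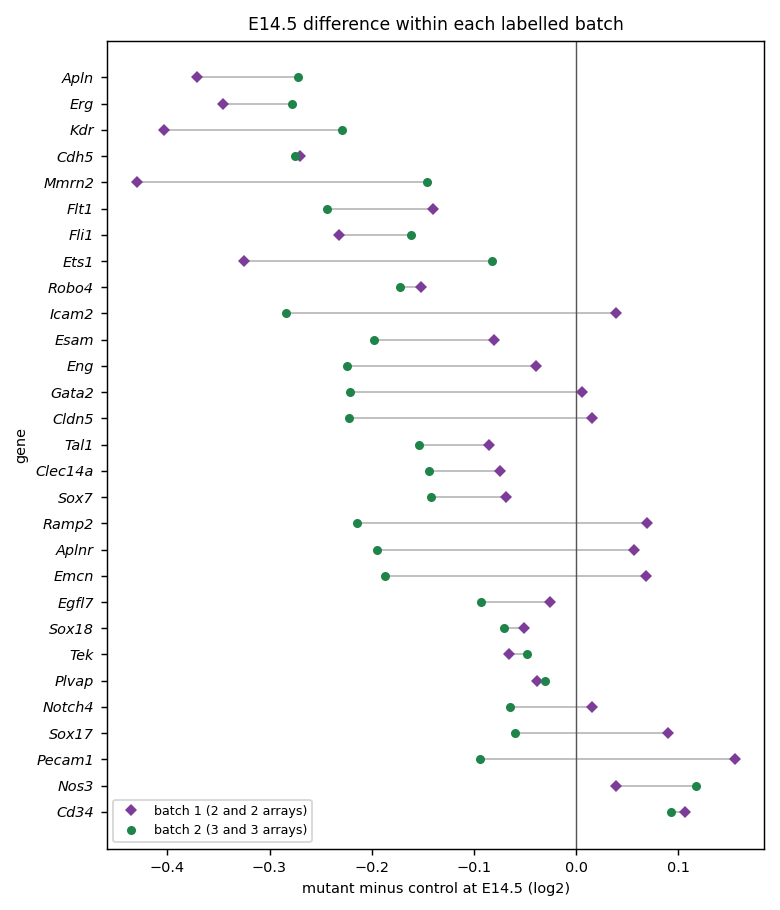
Difference between mutants and controls at E14.5 (log2, mutant minus control) within batch 1 (purple diamonds, 2 mutants and 2 controls) and batch 2 (green circles, 3 mutants and 3 controls) for the 29 endothelial genes tested. The upper genes lie below 0 in both batches, whereas 9 genes, among them Icam2, Ramp2 and Pecam1, lie on either side of 0.

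Some arrays were at the extremes more often than others. With the batch effect removed, E14.5 mutant 5 was the lowest array for 16 of the 29 genes and mutant 1 for 6, while control 5 was the highest for 9, control 3 for 8 and control 1 for 6. Without mutant 5 the median difference was −0.08, with 24 of 29 genes lower. Without control 5 it was −0.09 and without control 3 it was −0.10, again with 24 lower in each case. Without both controls 1 and 3, which stood apart in their muscle mean, the median was −0.11 with 21 of 29 lower, against 42.9% of all genes. At E13.5 the extremes were spread over both genotypes, with mutant 2 lowest for 9 genes, control 3 for 8 and mutant 3 for 7, and mutant 1 and control 2 highest for 10 each.

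Transcripts of other cell types were measured beside the endothelial ones, and some differed between genotypes. At E14.5 the mean of 13 oral epithelium genes was 8.09 to 8.43 in mutants, against 7.73 to 7.90 in controls, without overlap. Of the 13, 7 were called higher in mutants, against 2.63% of all genes called in either direction. The mean of 11 skeletal muscle genes was 6.22 to 7.52 in mutants, against 5.51 to 6.77 in controls at E14.5, and all 11 were fitted higher with none called. The mean of 14 palatal mesenchyme genes was 8.11 to 8.29 in mutants, against 8.22 to 8.33 in controls. Of these, 9 of 14 were fitted lower (64.3%, against 44.0% of all genes) and none was called. Epithelium and muscle genes thus ran opposite to the endothelial genes at E14.5, and the part of these lists in the endothelial values was not tested. At E13.5 the muscle mean was 7.35 to 7.73 in mutants, against 6.77 to 7.03 in controls and the epithelial mean 7.58 to 7.73 in mutants, against 7.60 to 7.89 in controls, so the muscle mean did not overlap there, with none of its 11 genes called, while the endothelial genes were near the median of all genes. The mesenchyme mean did not overlap at E13.5 either, at 8.58 to 8.67 in mutants, against 8.74 to 8.86 in controls. Of its 14 genes, 13 were fitted lower (92.9%, against 68.5% of all genes) and none was called.

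Cells that accompany vessels gave mixed values at E14.5. The mean of 7 erythroid genes was 5.24 to 5.42 in mutants, against 5.34 to 5.51 in controls. Of the 7, 5 were fitted lower in mutants (71.4%, against 44.0% of all genes) and none was called. The mean of 11 macrophage and leukocyte genes was 5.53 to 5.79 in mutants, against 5.57 to 5.85 in controls. Of the 11, 8 were fitted lower (72.7%, against 44.0% of all genes) and none was called. For 11 mural cell genes it was 5.26 to 5.55 in mutants, against 5.17 to 5.45 in controls, with 3 of 11 fitted lower (27.3%, against 44.0% of all genes) and 1 called higher. Des, which the skeletal muscle list also holds, was among those fitted higher. Only 3 platelet and megakaryocyte genes were tested, with 2 fitted lower and none called.

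**Figure D4:**
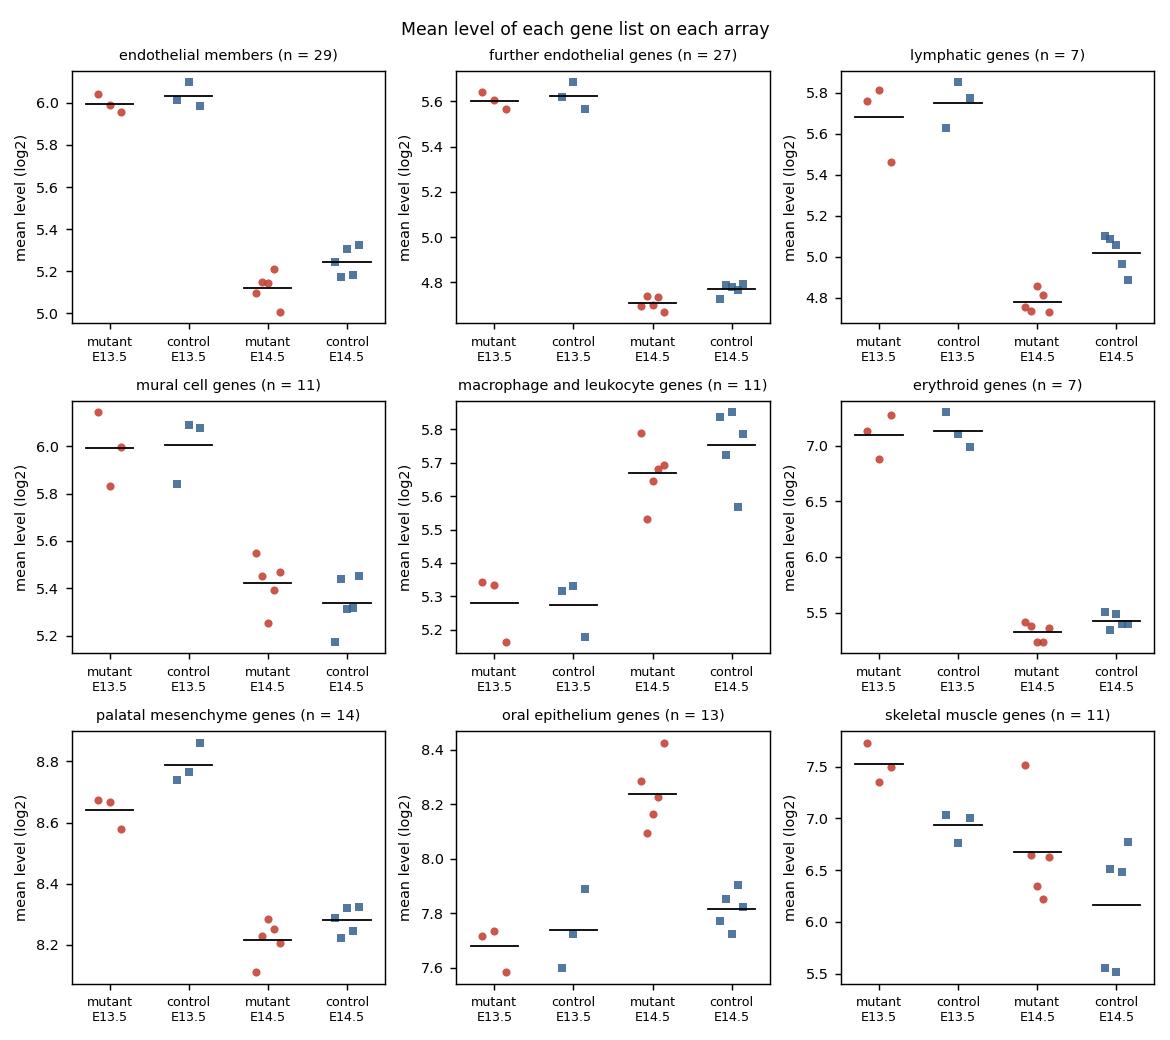
Mean log2 level of 9 gene lists on every array, with mutants (red circles) left of controls (blue squares) at each stage and a black line at the group mean; n is the number of genes in the mean, and each panel has its own scale. The endothelial mean at E14.5 is 5.01 to 5.21 in mutants and 5.17 to 5.32 in controls, while the oral epithelium mean is higher in mutants without overlap.

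Further genes of vessels were examined to see whether they followed. Of 27 further endothelial genes tested, 18 were fitted lower at E14.5 (66.7%, against 44.0% of all genes) with a median of −0.07, and the list's mean on each array was 4.67 to 4.74 in mutants, against 4.73 to 4.79 in controls. One of them was called, against 2.63% of all genes. S1pr1, the sphingosine 1-phosphate receptor that restrains vessel sprouting, was at 3.63, 3.98, 3.56, 3.79 and 3.73 in mutants, against 3.96, 4.38, 3.92, 4.28 and 4.41 in controls. Mutants were under log2 4 throughout and only mutant 2 reached the range of the controls, and S1pr1 fell by 0.45 ± 0.10 (limma adjusted p = 0.0374), a call that 12 of 29 alternatives kept. At E13.5 S1pr1 differed by −0.02 ± 0.14.

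Of 14 vessel ligands and co-receptors tested, 10 were fitted lower at E14.5 (71.4%, against 44.0% of all genes) with a median of −0.08. Of the 14, 2 were called, both lower in mutants, against 2.63% of all genes called in either direction. Angpt1, the mural and mesenchymal ligand of Tek, was at 7.53, 7.70, 7.55, 7.55 and 7.49 in mutants, against 7.79, 7.83, 7.92, 7.77 and 7.76 in controls. All mutants lay below all controls, and Angpt1 fell by 0.25 ± 0.06 (limma adjusted p = 0.0341), a call kept by 16 of 30 alternatives. At E13.5 its arrays did not overlap either, at 7.75, 7.60 and 7.53 in mutants, against 8.02, 7.93 and 7.83 in controls. The difference there was −0.30 ± 0.07 and was not called (limma adjusted p = 0.196). At E13.5 the arrays of 17.9% of all genes did not overlap in either direction, and 68.5% of all genes were fitted lower. The ligand was thus fitted lower in mutants at both stages but called at E14.5 only. Its receptor gene Tek differed by less than its standard error at each stage.

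Nrp2, a co-receptor for VEGF and semaphorins in lymphatic vessels, veins and nerves, was the other called gene of that list, at 7.13, 7.25, 7.29, 7.45 and 7.19 in mutants, against 7.57, 7.49, 7.56, 7.48 and 7.53 in controls. No array of one genotype reached the other, and Nrp2 fell by 0.265 ± 0.061 (limma adjusted p = 0.0374), with the call kept in 12 of 30 alternatives. Lyve1, a hyaluronan receptor of lymphatic endothelium and of some macrophages, was at 4.53, 4.12, 4.61, 4.68 and 4.37 in mutants, against 5.51, 5.89, 5.83, 5.47 and 5.03 in controls. The groups were well apart, and Lyve1 fell by 1.08 ± 0.16 (limma adjusted p = 0.00344, called in 28 of 29 alternatives). Lyve1 and Nrp2 were the 2 called genes of 7 lymphatic genes tested, against 2.63% of all genes. The list was mixed, with 4 of the 7 fitted lower (57.1%, against 44.0% of all genes) and 3 higher. Prox1, the factor that defines lymphatic identity, lay at 2.18 to 2.70 in mutants, against 2.32 to 2.64 in controls at E14.5, too little signal to show whether it differed.

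Of 11 genes of arteries and veins tested, 3 were fitted lower in mutants at E14.5 (27.3%, against 44.0% of all genes) and 8 higher, with a median of 0.11. Nr2f2, or COUP-TFII, a factor of venous identity that palatal mesenchyme may also express, was at 7.17, 7.06, 6.79, 6.98 and 7.10 in mutants, against 6.47, 6.66, 6.55, 6.98 and 6.53 in controls. Control 4 alone lay inside the range of the mutants, and Nr2f2 rose by 0.38 ± 0.09 (limma adjusted p = 0.0449), with the call kept in 6 of 30 alternatives. The mural cell gene called was Tagln, which encodes the actin-binding protein transgelin of smooth muscle, at 6.88, 6.87, 6.69, 6.50 and 6.86 in mutants, against 6.24, 6.03, 6.35, 6.28 and 6.24 in controls. All mutants lay above all controls, and Tagln rose by 0.53 ± 0.09 (limma adjusted p = 0.011, called in 27 of 30 alternatives).

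Between E13.5 and E14.5 the deposited values of the endothelial genes changed strongly, but so did those of most genes. In mutants 26 of the 29 were called, 23 lower and 3 higher at E14.5, against 85.3% of all genes called. In controls 22 were called, 20 lower and 2 higher, against 86.5% of all genes. The 10 genes with an E14.5 mean under log2 4 passed the filter through their E13.5 arrays, so a lower value at E14.5 is built into their being tested and supports nothing about the stage. The median of all genes was −0.56 in mutants and −0.63 in controls, and that of the 29 was −0.55 and −0.54. When arrays were centred on their own medians, 4 were called lower and 20 higher in mutants, and 5 lower and 20 higher in controls. Of all 11116 genes, 10238 were then called in mutants and 10171 in controls, with only 15.6% and 17.8% fitted lower. With quantile normalization over all arrays the numbers were 10 lower and 12 higher in mutants and 9 lower and 17 higher in controls. Of all genes, 8593 were then called in mutants and 8650 in controls, with 54.5% and 54.8% fitted lower. For 19 of the 29 the direction depended on the scaling or the genotype. Whether the stages were normalized together is not given in the sources used here.

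Under all 3 scalings and in both genotypes, 6 genes were lower at E14.5, Flt1, Eng, Robo4, Tal1, Gata2 and Apln, and all 6 are among those that passed the filter through E13.5 alone. Their E14.5 values ran from 1.82 (Tal1) to 3.81 (Eng), too dim for the size of the change to be read. Aplnr, Cd34, Plvap and Clec14a were higher under all 3, with Clec14a at 1.09 in mutants and 0.90 in controls as deposited. Other probe sets went against Clec14a and Aplnr, at −0.27 and −1.31 in controls.

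The rank of a probe set within its own array needs no common scale, but it depends on which genes are ranked. Of the 11116 genes ranked, 2446 had an E14.5 mean under log2 4. Brighter genes can therefore rank higher at E14.5 without a change of their own. The percentile rank of Kdr, which was measured above log2 4 at both stages, was 43.9 at E13.5 and 28.9 at E14.5 in mutants, and 44.9 at E13.5 and 32.8 at E14.5 in controls. Plvap ranked higher, at 42.8 at E13.5 and 55.4 at E14.5 in mutants, and 40.7 at E13.5 and 56.2 at E14.5 in controls. Cdh5 stayed near the middle, at 53.5 at E13.5 and 47.4 at E14.5 in mutants, and 53.7 at E13.5 and 52.2 at E14.5 in controls.

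**Figure D5:**
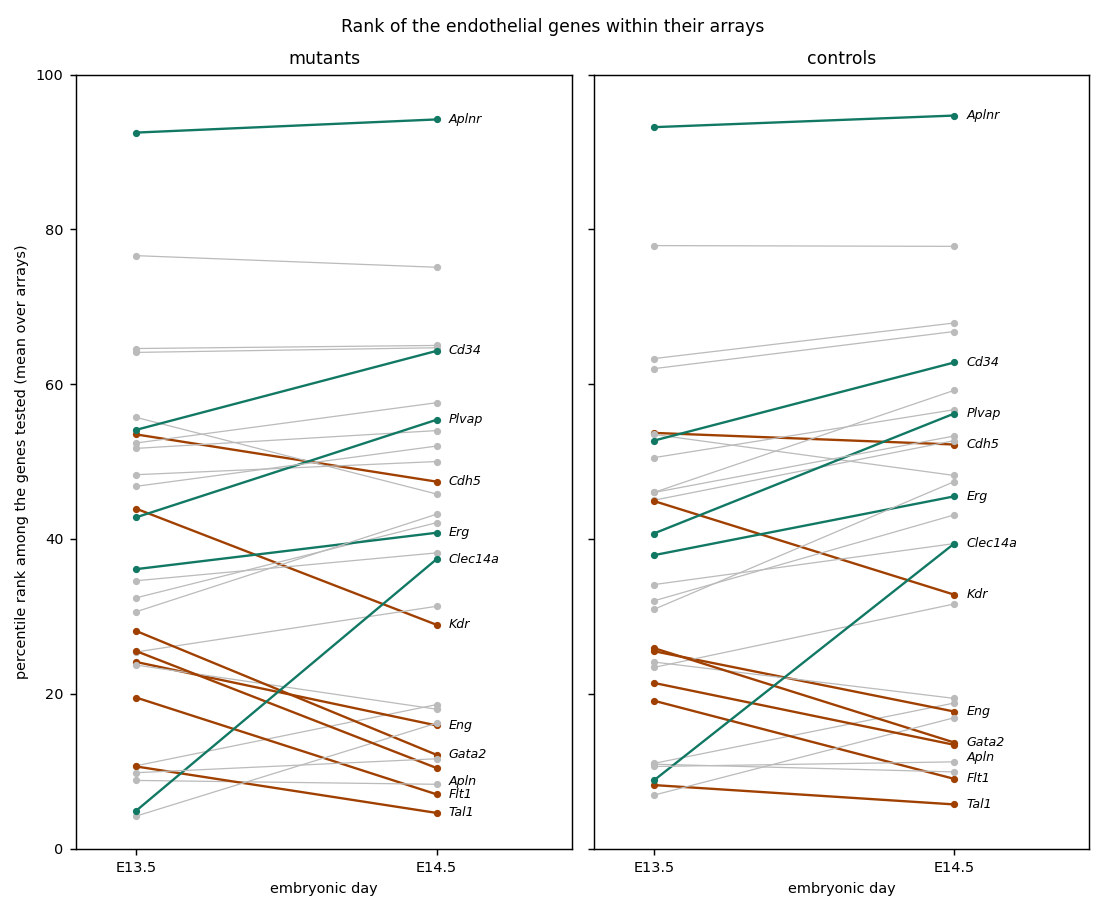
Percentile rank of each of the 29 endothelial genes among the 11116 genes tested, as the mean over the arrays of a group, at E13.5 and E14.5 in mutants (left) and controls (right), with 12 genes coloured by direction (green higher, brown lower at E14.5). At E14.5 Kdr ranks at 28.9 in mutants and 32.8 in controls, and Clec14a at 37.4 in mutants and 39.4 in controls. Genes under log2 4 at E14.5, such as Flt1, Tal1 and Apln, passed the filter through E13.5, so their lower E14.5 ranks are not evidence of a change. Of all the genes ranked, 2446 were this dim at E14.5, which can raise the ranks of brighter genes there.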

How the data were processed

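The deposited table holds log2 expression values of 45101 probe sets on 16 one-colour Affymetrix arrays, for which the authors used GCRMA, per the submitters' processing notes. Its version is not given in the sources used here. Values were used as deposited, without a further normalization. The platform annotation gave 1 gene to 34958 probe sets, several to 932 and none to 9211. The level of the targeted gene is not reported here.

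Differences were fitted in R 4.3.3 with limma 3.58.1 (lmFit and eBayes) over the 11116 genes that passed the filter, on all 16 arrays in 1 model of 4 groups plus a term for the E14.5 batches. P-values were Benjamini-Hochberg adjusted over all genes, errors are moderated standard errors, and intervals are at 95%. Overlap at E14.5 was judged with the batch effect removed. The procedure was tested on simulated data. Equal replicate numbers gave no clear sign of pairing: correlations of their deviations ran from −0.49 to 0.17. The model makes the deviations within an E14.5 batch cancel out, so negative values there cannot exclude pairing.

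The genes and lists were chosen with earlier results of these data known. Beyond the 33 genes, a list gene is named if called in a genotype comparison or if among the 2 smallest unadjusted p of the genes of its list not called at E14.5, and markers that define a tissue may be named too. Alternatives covered the filter, probe set, scaling, batch, sex, variance model, replicate block and single arrays. Promoter windows and chromosomes are from RefSeq (GRCm38.p6). Python 3.11.15 and matplotlib 3.10.9 made the figures.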

Additional observations from a re-analysis of the deposited data

Results flagged for a closer look

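Of 66 groups of 5 E14.5 arrays (33 genes in 2 genotypes), 1 held an array far from the others by Dixon's test; chance alone flags about 1 group in 20. Cldn5, the tight junction claudin, was at 6.191 on control 3, the highest of the 5 controls, with the nearest at 5.975 and a gap of 0.714 of the whole range, just over the critical value of 0.71.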

How the results depend on the processing

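No endothelial gene was called between genotypes at E13.5, nor for the difference of the genotype effects between stages, under any alternative run. At E14.5 none was called under 14 of the alternatives, and leaving out 1 array gave 0 to 1 calls: Erg without E13.5 control 2 (limma adjusted p = 0.0347), Apln without E14.5 mutant 3 (0.0313) and Cdh5 without E14.5 control 4 (0.0369). Over all their alternatives the adjusted p ran from 0.0347 to 0.36 for Erg, 0.0313 to 0.3 for Apln and 0.0369 to 0.325 for Cdh5, and all values stayed below 0. The E14.5 median (−0.126) was −0.051 in batch 1 alone, and −0.146 to −0.078 with 1 array left out (−0.078 without mutant 5). The E13.5 median (−0.045) was 0.03 after quantile normalization, with 16 of 29 genes then fitted higher, and −0.085 (without mutant 1) to −0.005 (without control 2) with 1 array left out, with −0.013 without mutant 3. Without E14.5 controls 1 and 3 the E14.5 median was −0.111, with 21 of 29 genes fitted lower. A replicate block ties arrays of equal number within a stage, and it pairs samples by number only. It gave 0 calls at E13.5, at E14.5 and for the difference of the genotype effects. The medians with it were −0.045 at E13.5 and −0.126 at E14.5. The filter at log2 6 keeps 13 of the 33 genes and 7380 of all genes. Between stages it gave calls for 11 of the 13 in mutants (26 of 29 before) and 7 of the 13 in controls (22 of 29 before). Of all 7380 genes, 6097 were called in mutants and 6178 in controls under this filter. Among the further vessel genes called at E14.5, the adjusted p over all alternatives ran from 0.00085 to 0.0524 for Lyve1 (lost in batch 2 alone), 0.00548 to 0.152 for Tagln (lost in either batch alone and with the replicate block), 0.0193 to 0.283 for Angpt1, 0.00488 to 0.224 for S1pr1, 0.0179 to 0.27 for Nrp2 and 0.00527 to 0.364 for Nr2f2, each with its direction kept. Angpt1 was not called without E14.5 mutant 1, 3, 4 or 5 or control 2 or 3. Nrp2 was not called without E13.5 control 1, E14.5 mutant 1, 2, 3 or 5 or E14.5 control 1, 2, 3 or 5. S1pr1 was not called without E13.5 mutant 3, E13.5 control 1 or 2, E14.5 mutant 1, 3, 4 or 5 or E14.5 control 2, 4 or 5. Nr2f2 was called without E14.5 mutant 3 or control 4, and not without any other array. The dim E14.5 signal of 10 of the 29 genes limits what their differences can show.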

Other observations

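Transcripts of blood and vessel cells that did not pass the test at E14.5 are given as values, for the 2 genes or fewer with the smallest p among those of each list not called. Of the macrophage and leukocyte genes 8 of 11 were fitted lower, of the further endothelial genes 18 of 27 and of the mural cell genes 3 of 11, against 44.0% of all genes. Mrc1 and Cx3cr1, a mannose receptor and a chemokine receptor of macrophages, differed by −0.36 ± 0.12 and −0.27 ± 0.09 (limma adjusted p = 0.133 and 0.115). Pf4, a chemokine of platelets and some macrophages, differed by −0.21 ± 0.09 (limma adjusted p = 0.25), and Ppbp, another platelet chemokine, by 0.59 ± 0.33 (limma adjusted p = 0.378). Slc4a1 and Hbb-y, the band 3 anion exchanger and an embryonic globin of red cells, differed by −0.19 ± 0.12 and −0.11 ± 0.07. Among endothelial genes, Ackr1, an atypical chemokine receptor of venules, differed by −0.37 ± 0.13, She by −0.27 ± 0.10, Adgrf5 by −0.24 ± 0.10 and Mmrn1, a multimerin of platelets and lymphatic vessels, by −0.37 ± 0.11. Gja4, the arterial gap junction connexin, was above 0 at 0.23 ± 0.07 (limma adjusted p = 0.11). Thbs1, the anti-angiogenic matrix protein thrombospondin, differed by −0.37 ± 0.11 (limma adjusted p = 0.0975). Vegfc, a growth factor of lymphatic vessels, differed by −0.17 ± 0.07 and its receptor gene Flt4 by −0.13 ± 0.10. The mural cell gene Pdgfrb differed by −0.16 ± 0.10, and Des, which is in both the mural and the skeletal muscle list, by 0.41 ± 0.19.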
